A study of Mus musculus with 3 samples.

Results

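The members described here are 7 genes that interferon-gamma is known to induce: the guanylate-binding proteins Gbp2, Gbp3, Gbp7 and Gbp9, the immunity-related GTPases Irgm1 and Igtp, and the transcription factor gene Irf1. They were taken by name and not by a measured value, though earlier results of these data were known. All 7 were among the 11979 genes listed in each of the 3 tables of unique molecular identifiers (UMIs, tags that count RNA molecules once). The libraries are droplet 3′ single-cell RNA libraries of CD11b+ CD45+ cells sorted from mouse brain: 1 from an MHC class II-deficient mouse that nearly lacked CD4 T cells and 2 from adult wild-type (WT) mice, called WT 1 and WT 2. The labels name neither the deleted gene nor the age of the deficient mouse, and the deletion is not stated to be limited to one cell type. With 1 deficient mouse, a difference between genotypes cannot be told apart from a difference between mice, ages or preparations.

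Interferon-gamma, a cytokine made by T cells and natural killer cells, binds the receptor Ifngr1/Ifngr2, and the signal reaches GAS elements in target promoters. Irf1 is one of the early targets and in turn acts on interferon-stimulated response elements (ISREs), on which type I interferon signalling, through Stat2 and Irf9, also acts. Guanylate-binding proteins and immunity-related GTPases are large GTPases that assemble on pathogen-containing vacuoles and on bacteria in mouse cells. Irgm1 and Igtp (also called Irgm3) are regulatory members of the second family, and Gbp2 is a well-studied member of the first.

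Gbp7, Gbp3 and Gbp2 lie in a cluster on the plus strand of chromosome 3 (Gbp7 at chr3:142530342-142550149 and Gbp2 at chr3:142620602-142638008 in the mm10 annotation), and Gbp9 lies on chromosome 5. Irgm1 (minus strand), Irf1 and Igtp are all on chromosome 11. The annotated Gbp9 gene overlaps Gbp8 and Gbp4 on the same strand, and Igtp overlaps Irgm2, so the split of reads between these neighbours is uncertain. None of the 98-base windows in the last 500 bases of the members' transcripts occurred in a transcript of another gene.

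The promoters below are shown for the 4 genes on which the results turn, Gbp7, Irgm1, Igtp and Irf1. Each is the 150 bases before the RefSeq start (GRCm38.p6), given 5′ to 3′ on the gene's strand, at chr3:142530186-142530335 for Gbp7 (plus), chr11:48871421-48871570 for Irgm1 (minus), chr11:58199406-58199555 for Igtp (plus) and chr11:53769864-53770013 for Irf1 (plus, the first of its annotated starts). Capitals mark matches on either strand to an ISRE-like motif, GAAA followed by any 2 bases and GAAA again, and to a GAS-like motif, TTCNNNGAA; an ISRE-like match that reads TTTC is on the opposite strand.
Gbp7: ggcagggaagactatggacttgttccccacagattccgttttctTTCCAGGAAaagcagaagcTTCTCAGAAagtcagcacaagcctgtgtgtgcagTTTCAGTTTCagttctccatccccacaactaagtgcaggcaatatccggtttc
Irgm1: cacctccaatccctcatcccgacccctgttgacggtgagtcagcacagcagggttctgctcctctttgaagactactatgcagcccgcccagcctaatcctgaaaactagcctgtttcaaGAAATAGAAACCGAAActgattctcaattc
Igtp: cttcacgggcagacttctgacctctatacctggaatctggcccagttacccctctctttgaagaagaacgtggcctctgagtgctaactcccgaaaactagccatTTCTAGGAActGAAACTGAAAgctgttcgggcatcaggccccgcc
Irf1: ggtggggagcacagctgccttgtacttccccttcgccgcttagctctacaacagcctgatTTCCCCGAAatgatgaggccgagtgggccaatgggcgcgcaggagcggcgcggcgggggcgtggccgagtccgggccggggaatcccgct
The Gbp7 window held 1 ISRE-like match and 2 GAS-like matches. Irgm1 held a pair of overlapping ISRE-like matches, Igtp 1 of each motif, and Irf1 a GAS-like match only. RefSeq windows were matched for 6 of the 7 members, and an ISRE-like match was in a window of 5 of them (Gbp2, Gbp3, Gbp7, Irgm1 and Igtp), against 1.586% of 32851 mouse promoter windows of the same length. GAS-like matches were in windows of Gbp7, Igtp and Irf1, against 4.091% of all windows.

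The deficient, WT 1 and WT 2 libraries held 2257, 4340 and 4667 cells after filtering, with medians of 2824, 3384.5 and 3338 UMIs per cell. Microglia-like cells, named from clusters by 12 markers, made up 97.6%, 90.2% and 94.5% of them. The gate genes Itgam and Ptprc were present in every library, and the MHC class II genes H2-Aa, H2-Ab1 and H2-Eb1 had no UMI in the deficient library, against 162 to 258 per 1000000 UMIs (CPM) in the WT libraries. The deficient library stood apart: 1889 of its 2203 microglia-like cells fell in 2 clusters, of which the larger was led by Ccr6 and Tagap1, and these held 56 WT 1 and 87 WT 2 cells. Between 13 and 28 cell barcodes were shared by any pair of libraries. No Ifng was listed in any table, and natural killer cell markers summed to at most 4.21 CPM.

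Among microglia-like cells, Gbp7 was higher in the deficient library than in WT, and it was the only member that passed the test between genotypes. UMIs were summed over these cells in each library and tested with edgeR. Only the spread between WT 1 and WT 2 informs this fit (1 residual degree of freedom), and the single deficient library is taken to vary as much as they do. Gbp7 stood at 93.1 CPM in the deficient library (599 UMIs, exact 95% Poisson interval 85.8 to 100.9), against 57.2 CPM in WT 1 and 58.7 CPM in WT 2. Its interval overlapped neither WT interval (53.3 to 61.4 and 55.0 to 62.6), and these intervals cover counting error only. The log2 fold change, deficient over WT, was 0.69 (SE 0.085, edgeR adjusted p = 0.000418), a ratio of 1.61 to the WT mean. Over all genes, 7.22% of 11864 passed the same test, 1.28% higher and 5.94% lower, and with that background 1 called member of 7 is not read as a property of the group.

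Gbp2 had few molecules, at 9.8 CPM in the deficient library (63 UMIs), 5.6 CPM in WT 1 (78 UMIs) and 6.8 CPM in WT 2 (107 UMIs). The deficient value was the highest, but its interval reached down to 7.5 CPM and met that of WT 2, and the log2 fold change of 0.66 (SE 0.24) did not pass (edgeR adjusted p = 0.149). Gbp3, at 20.5 CPM in the deficient library against 18.3 and 17.6 CPM in WT 1 and WT 2, had a log2 fold change of 0.20 (edgeR adjusted p = 0.477). Gbp9 stood at 17.3 CPM in deficient cells and at 13.8 and 14.3 CPM in WT 1 and WT 2, with a log2 fold change of 0.31 (edgeR adjusted p = 0.324). None of these 3 genes passed the adjusted threshold, although the deficient Gbp2 interval did not meet that of WT 1.

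Of the immunity-related GTPases, Irgm1 lay at 25.0 CPM in the deficient library, against 21.9 CPM in WT 1 and 22.3 CPM in WT 2 (log2 fold change 0.19, edgeR adjusted p = 0.473). Igtp, at 33.9 CPM in deficient cells and 41.7 and 42.1 CPM in WT 1 and WT 2, had a log2 fold change of -0.30 (SE 0.11) that did not pass (edgeR adjusted p = 0.175). Its deficient interval (29.5 to 38.7 CPM) met that of WT 1 (38.4 to 45.3). It lay below that of WT 2 (39.0 to 45.45). When every cell was thinned to 1000 UMIs the Igtp log2 fold change was -0.03. In a separate random draw of 1000 UMIs per cell, the share of cells with an Igtp UMI was lower in the deficient library, at 2.55% (1.92 to 3.30). It was 3.77% (3.19 to 4.42) in WT 1 and 4.09% (3.52 to 4.73) in WT 2. The intervals of these shares do not cover the spread between random draws. Why the thinned fold change and the thinned shares differ was not tested. Irf1 separated the WT libraries from each other: it stood at 70.6 CPM in the deficient library, 99.3 CPM in WT 1 and 72.8 CPM in WT 2, so the deficient and WT 2 intervals overlapped and WT 1 was above both (log2 fold change -0.27, edgeR adjusted p = 0.397). Summed over the 7 genes, the level was 270.2 CPM in deficient cells, 257.8 CPM in WT 1 and 234.6 CPM in WT 2, and the median log2 fold change was 0.20 for the members and -0.0013 for all genes.

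**Figure D1:**
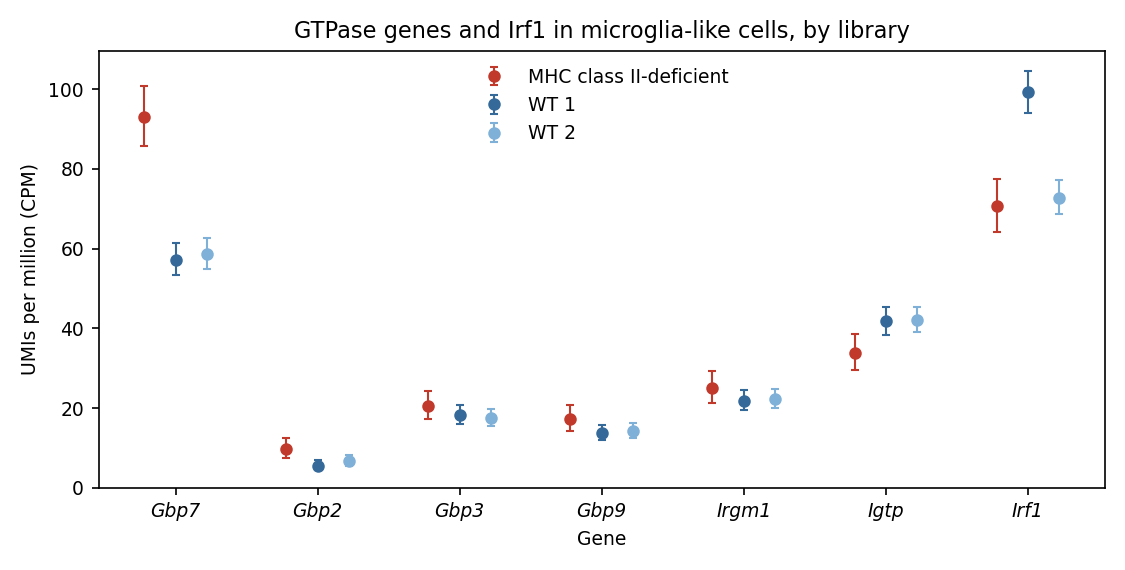
CPM (vertical axis) of the 7 genes in microglia-like cells of the MHC class II-deficient library (red) and the WT libraries (blue). Bars are exact 95% Poisson intervals, which cover counting error; the deficient Gbp7 point, at 93.1 CPM, stands clear of both WT points, and WT 1 stands apart for Irf1.

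By cluster, the Gbp7 comparison rested on few deficient cells, and it was not tested. Of 8 microglia-like clusters with at least 20 cells in every library, the deficient level was above both WT levels in 6 and below both in none. The largest deficient cluster, led by Ccr6 and Tagap1, was not among these 6, and the other clusters compared held 20 to 56 deficient cells each. Another cluster, of 314 deficient cells, held 5 WT 1 and 6 WT 2 cells and was not compared. The share of cells with a Gbp7 UMI, after thinning to 1000 UMIs, was 9.73% in the deficient library (95% exact binomial interval 8.51 to 11.1), against 5.43% in WT 1 and 5.73% in WT 2; without thinning it was 22.1%, against 16.9% and 17.4%. Neutrophil-like cells, in which Gbp7 was low, had thinned shares of 1.11% in WT 1 and 0.813% in WT 2. In the cluster led by Ccr6 and Tagap1, Gbp7 stood at 99.5 CPM in 1575 deficient cells (90.5 to 109), at 101 CPM in 51 WT 1 cells (50.3 to 180) and at 89.2 CPM in 81 WT 2 cells (53.7 to 139). In the WT cells of that cluster Gbp7 rested on 11 and 19 UMIs. Their intervals held the deficient level and also the Gbp7 levels over all WT 1 and WT 2 microglia-like cells. These counts cannot place the WT cells of the cluster nearer to either level. The members themselves were not used for clustering. In the cluster led by Cst7, Itgax and Lpl, Gbp7 was low in all 3 libraries, at 27.0, 27.0 and 19.0 CPM in deficient, WT 1 and WT 2 cells.

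Among the other genes of the pathway, few passed between genotypes. The receptor chain Ifngr1 was at 1214 CPM in the deficient library and 1190 and 1237 CPM in WT 1 and WT 2, Ifngr2 at 269, 270 and 281 CPM, and Irf8, a myeloid transcription factor, at 736, 774 and 738 CPM in the same order; none of these 3 passed. Of 5 type I receptor and signalling genes none passed. Of 14 other GTPases of the 2 families, only 4 were tested, as most of the rest were not listed in every table. Gbp4, Iigp1 and Tgtp2 were listed in both WT tables and not in the deficient one, at 2 to 11 UMIs per WT library in microglia-like cells. The deficient table, from the fewest cells and UMIs, listed 12077 genes in all, against 13770 in WT 1 and 13695 in WT 2. The absence of such low genes from it is not read as a difference between genotypes. Among the 4 tested 1 rose, the immunity-related GTPase-like gene Gm4951. It was at 10.3 CPM in deficient cells against 4.23 and 4.70 CPM in WT 1 and WT 2 (log2 fold change 1.20, edgeR adjusted p = 0.0096). Irgm2 (20.2 CPM in deficient cells, 18.4 and 21.2 CPM in WT) and Gbp5 (14.6 CPM in deficient cells, 13.1 and 10.1 CPM in WT) did not pass. None of 14 tested further interferon-gamma targets, which include B2m and the proteasome subunit Psmb8, passed, and of 14 tested type I genes 1 rose, Rtp4 (log2 fold change 0.54, edgeR adjusted p = 0.0305).

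Beside these, the libraries differed in immediate early genes and in neutrophil RNA. The 22 genes of the immediate early list, which digestion of tissue and cell activation are known to induce, include the heat shock genes Hspa1a and Hspa1b. The list summed to 8779 CPM in deficient microglia-like cells, against 23401 CPM in WT 1 and 16125 CPM in WT 2. Of the 22, 15 fell in the deficient library (median log2 fold change -1.10) and 7 did not pass. The falls were uneven. Klf2 fell most, by 5.87 on the log2 scale, with 22.5 CPM in deficient, 1565 CPM in WT 1 and 1083 CPM in WT 2 cells. Hspa1a, which did not pass, was at 641, 664 and 716 CPM in the same order. The 9 neutrophil markers summed to 49.4 CPM in deficient microglia-like cells and to 1220 and 639 CPM in those of WT 1 and WT 2. Restricted to cells with an immediate early share at or under the deficient median, 1102 deficient, 234 WT 1 and 451 WT 2 cells, the Gbp7 log2 fold change was 0.68 (edgeR adjusted p = 0.0101). The cells kept by this limit were not matched: the list summed to 1189 CPM in deficient, 1663 CPM in WT 1 and 1650 CPM in WT 2 cells. The part of neutrophil RNA in the Gbp7 difference was not tested.

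Irf1 moved with the immediate early genes among cells. In deficient cells over the immediate early limit (0.2377% of UMIs) Irf1 was at 94.4 CPM, and at or under it 46.1 CPM. In WT 1 the values were 102 CPM over and 48.0 CPM at or under the limit, and in WT 2 74.8 and 53.8 CPM. The intervals of the 2 sets did not overlap in any of the 3 libraries. At or under the limit the 3 libraries lay between 46.1 and 53.8 CPM, and their intervals overlapped. These sets were not matched, as the immediate early list summed there to 1189 CPM in deficient, 1663 CPM in WT 1 and 1650 CPM in WT 2 cells. In the cluster led by Fosb, Klf4 and Atf3, Irf1 reached 145 CPM in deficient cells, 274 CPM in WT 1 cells and 193 CPM in WT 2 cells. Gbp7 did not show this order, at 88.6 CPM over and 97.8 CPM at or under the limit in deficient cells.

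**Figure D2:**
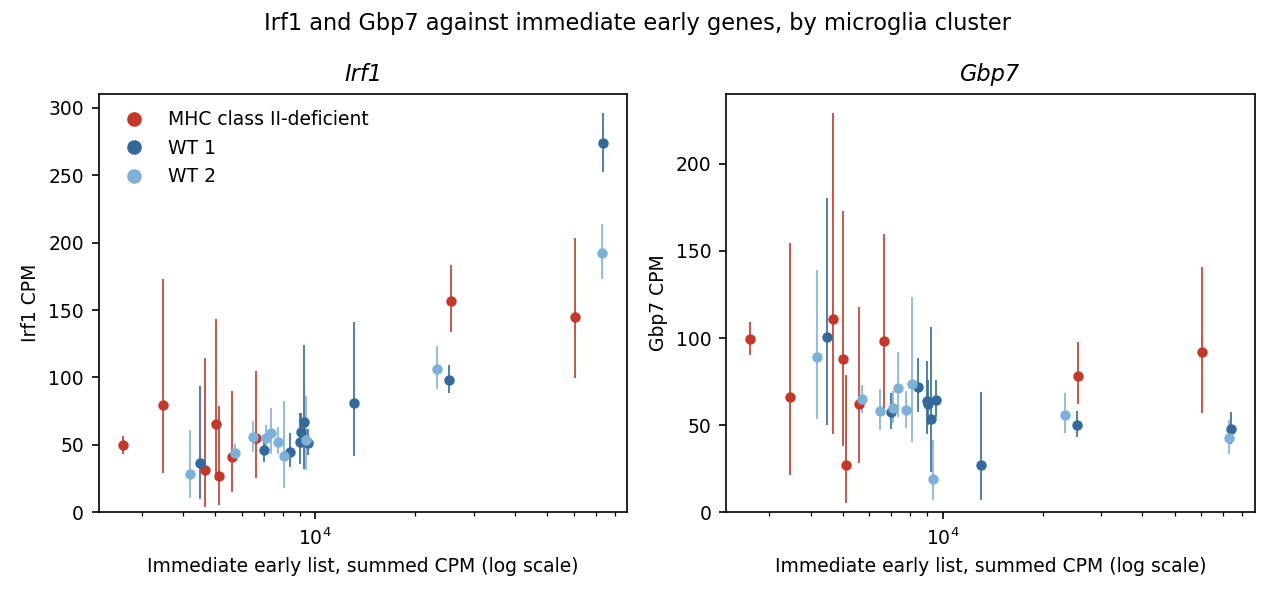
Irf1 (left) and Gbp7 (right) in CPM against the summed CPM of the immediate early list (log scale), each point a microglia-like cluster of at least 20 cells in 1 library, with exact 95% Poisson intervals. Irf1 is highest in clusters with the most immediate early UMIs, with 145, 274 and 193 CPM in deficient, WT 1 and WT 2 cells of the Fosb-led cluster; the deficient Gbp7 points do not follow this order.

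Microglia-like cells with type I interferon genes were then set against cells without them. A cell was counted as with them when it held at least 2 UMIs of a list of 19 type I genes (such as Ifit1, Isg15 and Rsad2) after thinning to 1000 UMIs, and as without them at 0. These were 26 of 2159 deficient cells (1.20%, 95% exact binomial interval 0.788 to 1.76), 51 of 3847 WT 1 cells (1.33%) and 47 of 4348 WT 2 cells (1.08%), whose intervals overlapped. Many sat at the threshold, 18, 28 and 27 cells with exactly 2 UMIs in the deficient, WT 1 and WT 2 libraries, and 142, 181 and 201 cells with 1 UMI were left out. Median depth was 3197 UMIs in deficient cells with and 2849 in those without, 3215 and 3393 in WT 1, and 3256 and 3338.5 in WT 2. In the deficient library 16 of the 26 cells were in the Ccr6 and Tagap1 cluster, which held 1575 of all 2203 deficient microglia-like cells. A further 6 were in the cluster led by Xaf1 and Bst2, which had only 47 deficient cells in all. That cluster held 26 of 51 such cells in WT 1 and 23 of 47 in WT 2, where it had 453 and 645 cells in all.

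Irgm1, Igtp and Irf1 rose in the cells with type I genes, and Gbp7 did not. Irgm1 was at 124 CPM with and 23.1 CPM without type I genes in the deficient library (10 and 136 UMIs). In WT 1 it was at 68.7 CPM with and 21.3 CPM without, and in WT 2 at 110 CPM with and 21.1 CPM without. All 3 libraries had the same direction, with no overlap between the with and without intervals. The log2 fold change with the library as a block was 2.11 (SE 0.32, edgeR adjusted p = 8.94e-09). Of 9963 genes tested, 1.69% passed, 1.49% higher and 0.201% lower, and 3 of the 7 members passed, all higher.

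Igtp stood at 74.2 CPM with and 32.0 CPM without in the deficient library (6 and 188 UMIs), where the intervals overlapped. In WT 1 the levels were 109 CPM with and 40.8 CPM without, and in WT 2 140 CPM with and 41.1 CPM without, with separate intervals in both. Its log2 fold change was 1.496 (SE 0.28, edgeR adjusted p = 1.62e-05). Both calls rest on few molecules, and they were lost with limma voom (adjusted p = 0.0545 for Irgm1 and 0.126 for Igtp), when the thinned UMIs were summed (0.0723 and 0.0958) and without the deficient library (0.0696 and 0.0739), with log2 fold changes of at least 1.51 in each; Igtp was also lost without WT 2 (edgeR adjusted p = 0.109).

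Irf1 rose with a log2 fold change of 0.89 (SE 0.22, edgeR adjusted p = 0.00516), on the WT libraries. It was at 178 CPM with and 97.4 CPM without in WT 1, and at 189 CPM with and 69.4 CPM without in WT 2. In the deficient library it was at 49.5 CPM with (4 UMIs) and 69.9 CPM without, with overlapping intervals. Its call held under 4 of 13 alternatives and was lost without any 1 of the libraries: adjusted p = 0.179 without the deficient library, 0.182 without WT 1 and 0.983 without WT 2 (edgeR). The immediate early list summed to 9249 CPM with and 8644 CPM without in the deficient library, 23501 and 23415 CPM in WT 1, and 29040 and 15783 CPM in WT 2, and 11 of its 22 genes passed as higher in this test. Of those named by the rule, Klf2 lost its call in 7 of 13 alternatives, Dusp1 in 9 and Nr4a1 in 10, Ier2 was lost in 5 and turned in 2, and Egr2 was lost in 9 and turned in 2. Their part in the Irf1 difference was not tested.

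Gbp7 showed no common direction. It was at 61.8 CPM with (5 UMIs) and 95.2 CPM without in the deficient library, 80.2 CPM with and 57.7 CPM without in WT 1, and 60.9 CPM with and 58.4 CPM without in WT 2. The log2 fold change was 0.029 (SE 0.29, edgeR adjusted p = 0.997), a precision at which a small change was not detectable. Gbp2, Gbp3 and Gbp9 had log2 fold changes of 1.95 (SE 0.66), 1.14 (SE 0.44) and 1.09 (SE 0.52), none of which passed (edgeR adjusted p = 0.135, 0.286 and 0.517), on 1 to 7 UMIs per library in the cells with type I genes. The Gbp9 level in WT 2 was lower with (6.1 CPM, 1 UMI) than without (14.0 CPM). The median over the members was 1.14, against -0.098 over all genes.

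**Figure D3:**
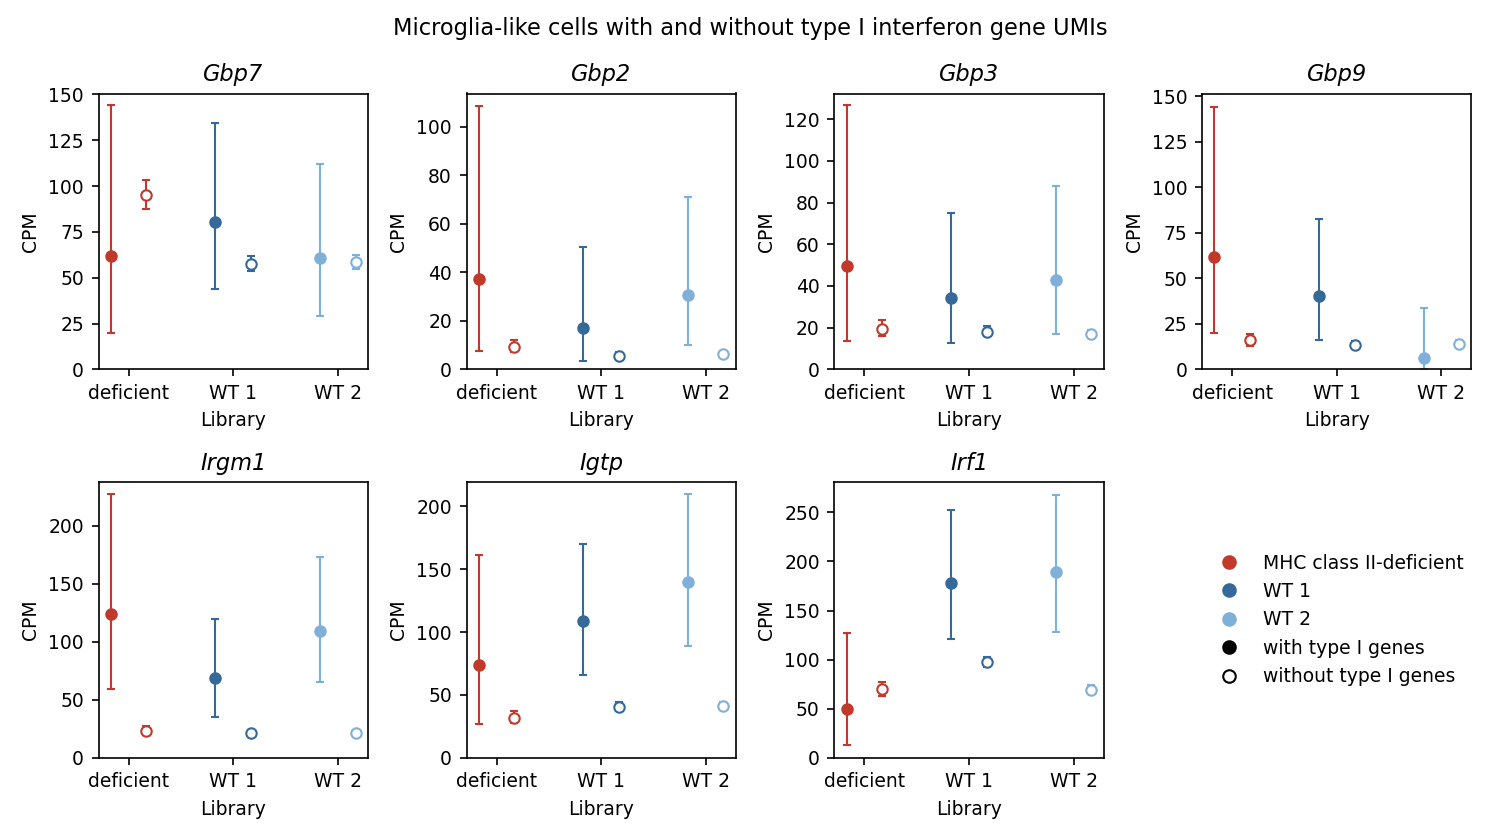
CPM of each gene in microglia-like cells with (filled, left) and without (open, right) type I interferon gene UMIs in each library; bars are exact 95% Poisson intervals. Irgm1 is higher with type I genes in all 3 libraries (124 against 23.1 CPM in the deficient library), while Gbp7 in the deficient library is at 61.8 CPM with and 95.2 CPM without.

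Genes that type I signalling is known to use or induce rose with the split, which was made on other genes of the same response. Stat2 and Irf9, which act together after type I signals, rose by 2.67 and 1.54 on the log2 scale (edgeR adjusted p = 1.41e-20 and 1.23e-08), and the other 3 of 5 type I receptor and signalling genes did not pass. Of 3 other GTPases tested Gm4951 rose (3.79), while Irgm2 (1.25, SE 0.41, edgeR adjusted p = 0.112) and Gbp5 (1.21, SE 0.56, edgeR adjusted p = 0.487) did not pass. Of 14 further interferon-gamma targets 6 rose and none fell, among them the chemokine Cxcl10 (3.51), the peptide transporter Tap1 (1.77), the proteasome genes Psme2 (0.84) and Psmb9 (0.84), and B2m (0.43). Of 13 alternatives, Tap1 lost its call in 2, Psme2 in 8 and Psmb9 in 9. The interferon-gamma receptor chain Ifngr1 fell by 0.41 (edgeR adjusted p = 0.0302), a call that held in 2 of 13 alternatives.

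Within the cells without type I genes, Gbp7 was still higher in the deficient library (log2 fold change 0.72, edgeR adjusted p = 3.12e-07, where 9.52% of 11810 genes passed), at 95.2 CPM against 57.7 and 58.4 CPM in WT 1 and WT 2. Within the cells with type I genes the value was -0.16 (edgeR adjusted p = 0.947, where 1.47% of 3748 genes passed), on 5 deficient UMIs. The difference between these differences was tested as an interaction and no member passed. Its log2 value was -0.99 (SE 0.61) for Gbp7 and -1.72 (SE 0.65) for Irf1, which had an unadjusted p of 0.0332 and an edgeR adjusted p of 0.932; for Irgm1 it was 0.27 (SE 0.57) and for Igtp -0.47 (SE 0.59). Only 0.0100% of 9963 genes passed this test, and on simulated data it recovered 28% of increases and 5.33% of decreases of 2 on the log2 scale, so differences of that size could be missed.

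**Figure D4:**
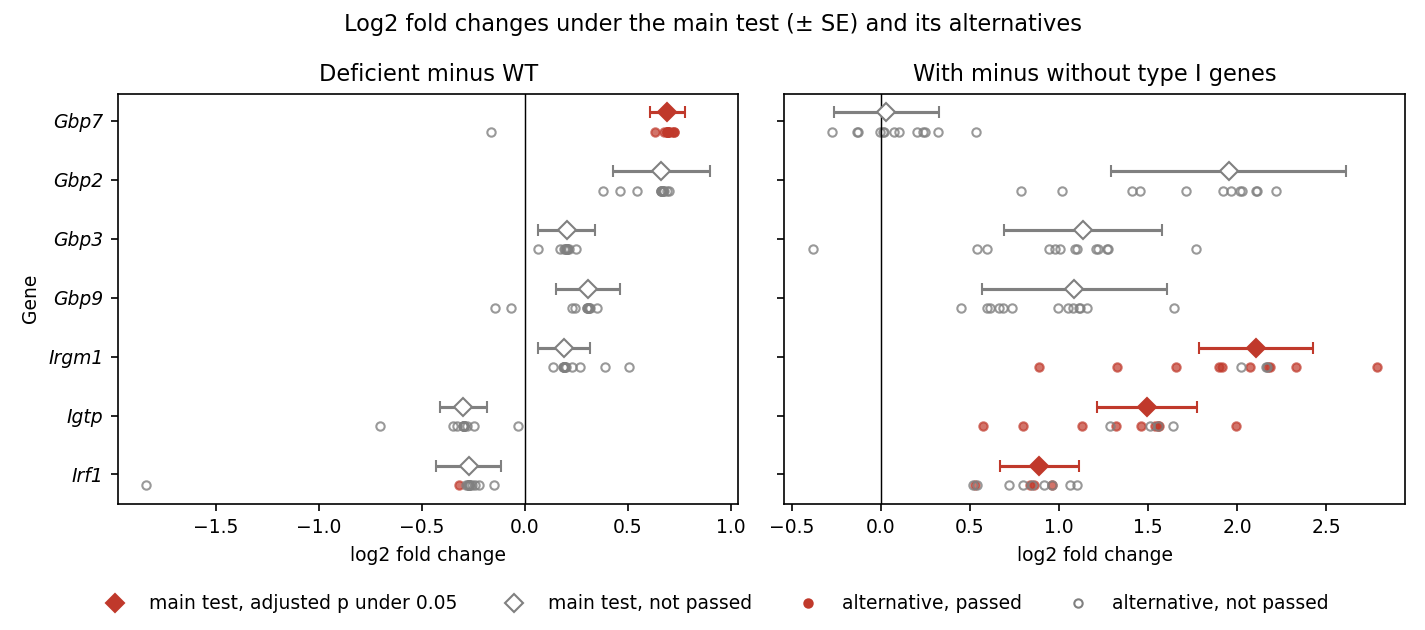
Log2 fold changes (horizontal axis) of each gene for deficient minus WT (left) and for cells with minus without type I genes (right); diamonds are the main test with SE, circles its alternatives, and red marks an adjusted p under 0.05. Gbp7 is red at 0.69 on the left with 1 alternative below 0, from the cells with type I genes, and Irgm1, Igtp and Irf1 are red on the right with several open circles.

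Across cell classes the members were not alike, and microglia-like cells held most of their UMIs: 98.4%, 93.4% and 95.9% of Gbp7 UMIs in the deficient, WT 1 and WT 2 libraries, but 78.8%, 72.9% and 77.5% of Gbp2 UMIs. These cells held most UMIs of all genes too, 6432294 of 6616662 in the deficient library, 13941708 of 16230216 in WT 1 and 15741357 of 17293844 in WT 2. A high share is therefore not read as a microglial trait. Outside microglia the deficient library had 4 to 19 cells per class, so the WT libraries carry most of this description, which has no test. Border-associated macrophage-like cells summed to 369 CPM over the 7 genes in 15 deficient cells, 320 CPM in 74 WT 1 cells and 339 CPM in 67 WT 2 cells, above the microglia of the same WT libraries beyond the intervals. Gbp2 was higher in these macrophages than in microglia, at 64.1 CPM in the deficient library (4 UMIs, all from 1 cell), 20.3 CPM in WT 1 (9 UMIs) and 44.8 CPM in WT 2 (21 UMIs), and Irf1 was at 32.1 CPM (2 UMIs), 110 CPM and 117 CPM. Gbp7 was at 112 CPM (7 UMIs), 67.6 CPM and 64.0 CPM, near its microglial levels.

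Neutrophil-like cells had the lowest levels of the named classes in the WT libraries, with sums of 73.0 CPM in 282 WT 1 cells and 54.1 CPM in 135 WT 2 cells, and 140 CPM on 7 UMIs in 19 deficient cells. Gbp7 was at 16.0 and 5.23 CPM in WT 1 and WT 2 neutrophil-like cells. Classical monocyte-like cells had sums of 227 CPM in 42 WT 1 cells and 327 CPM in 28 WT 2 cells, with Gbp3 at 63.9 and 39.3 CPM and Gbp7 at 20.3 and 26.2 CPM in WT 1 and WT 2. Gbp3 was thus the higher of the pair here, on 22 against 7 UMIs in WT 1 and 9 against 6 in WT 2, with intervals that met in both, whereas Gbp7 was the higher in microglia. The 4 deficient cells of this class summed to 696 CPM on 18 UMIs. Non-classical monocyte-like cells, 15 deficient, 10 WT 1 and 12 WT 2, summed to 820 CPM (557 to 1164) in the deficient library, against 223 CPM (107 to 410) in WT 1 and 182 CPM (83.2 to 345) in WT 2. Other markers differed in this class too: neutrophil markers summed to 0 CPM in deficient cells, 7024 CPM in WT 1 and 18059 CPM in WT 2, microglial markers to 1085, 8652 and 4044 CPM, and the type I list to 1482, 491 and 142 CPM, and their part in the difference was not tested. In that deficient class Gbp2 reached 185 CPM on 7 UMIs and Irf1 318 CPM on 12 UMIs, while each WT library had 1 Gbp2 UMI.

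**Figure D5:**
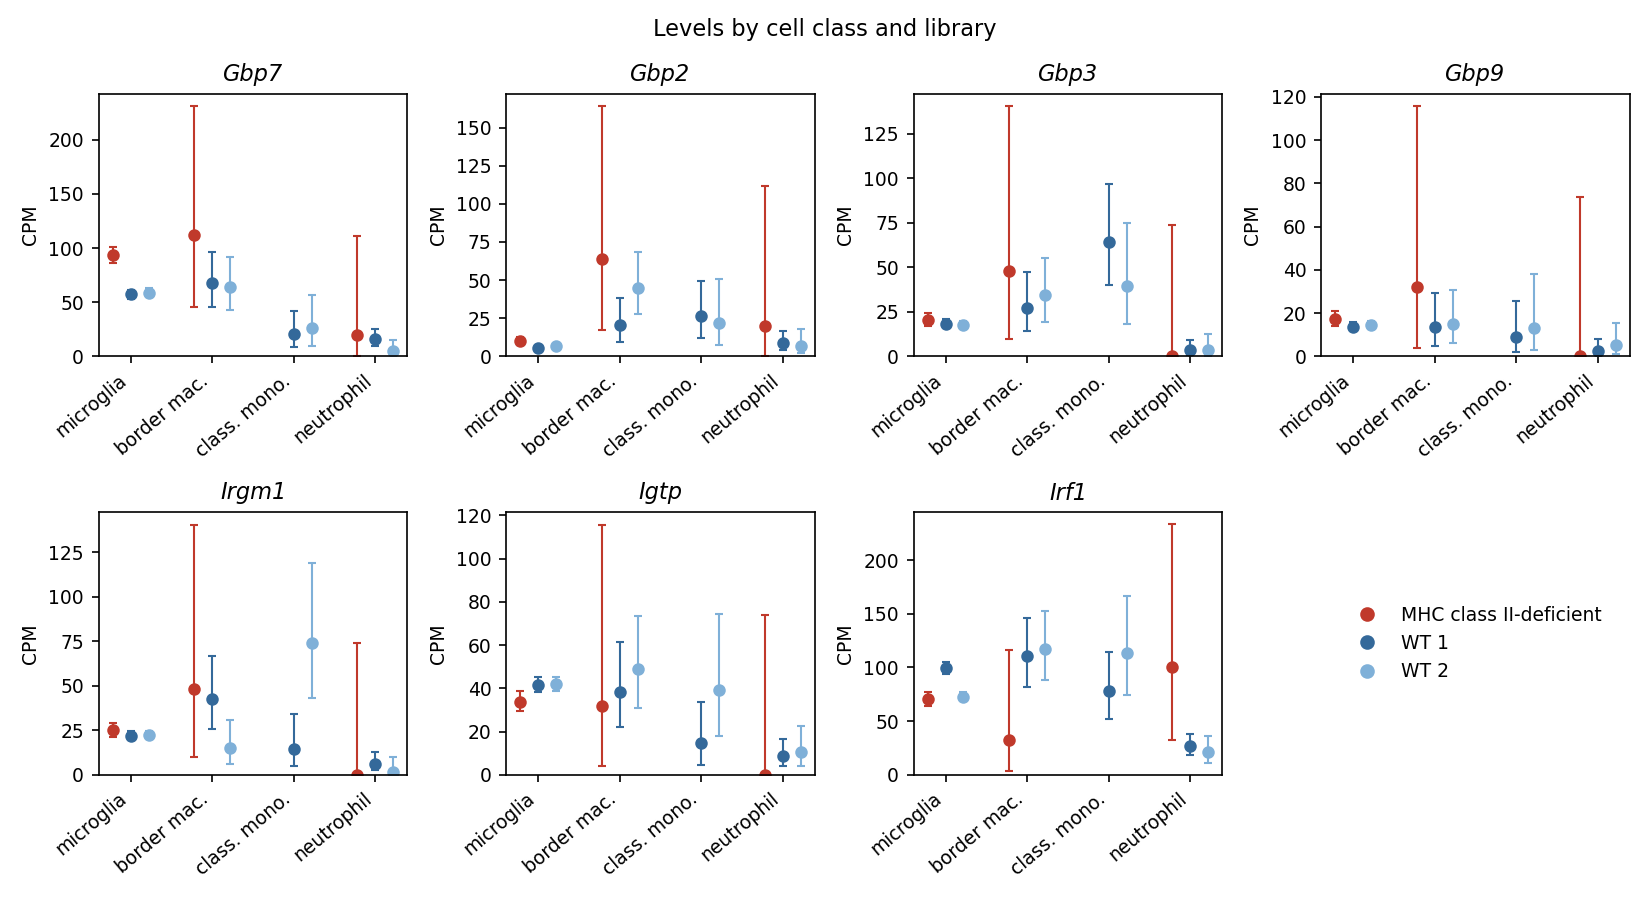
CPM of each gene by cell class and library, with exact 95% Poisson intervals; classes with fewer than 15 cells in a library are not drawn, and non-classical monocyte-like cells are left out. Gbp7 is highest in microglia-like and border macrophage-like cells, and Gbp3 in WT classical monocyte-like cells (63.9 and 39.3 CPM).

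Over the 9 class by library sums with at least 20 cells, the genes whose log2(CPM + 1) followed the sum of the members most closely were Itpkb, Rc3h1 and Zfp703 (Pearson r = 0.993 each), Stat3 and Trafd1 (0.991 each), among 5638 genes. The points share libraries, and the low neutrophil sums set much of the range. Among the members themselves r with the sum was 0.985 for Irf1 and 0.831 for Gbp7.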

How the data were processed

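The authors deposited raw counts, whole numbers of UMIs for every gene in every barcode, in 1 table for each of 3 libraries of sorted CD11b+ CD45+ mouse brain cells, with no normalization. The submitters' processing notes list Cell Ranger 3.0, Seurat 2.2 and mm10; filters are not given in the sources. Library totals were 6616662 UMIs (deficient), 16230216 (WT 1) and 17293844 (WT 2).

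Barcodes were retained at 500 or more UMIs, 200 or more genes and up to 10% mitochondrial UMIs. Scrublet called 29 of 11264 cells (0.257%) as doublets, was taken not to have worked, and no cell was removed. Cells were clustered with scanpy 1.11.5 (2000 variable genes, 30 components, Leiden resolution 1) without the members, the gene lists, MHC class II and sex-linked genes, and classes were named from marker lists. The names are rebuilt here and may differ from the study's.

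UMIs were summed per library, and edgeR 4.0.16 (R 4.3.3; TMM, filterByExpr, quasi-likelihood test, Benjamini-Hochberg over all genes tested, threshold 0.05) was applied to deficient minus WT, to cells with minus without type I genes (library as a block, type I list left out), and to their interaction. CPM is UMIs per 1000000 UMIs of the class. Intervals are exact, at 95%. DESeq2 1.42.0, limma 3.58.1, other normalizations, filters, cell sets and splits were alternatives. On simulated counts the genotype test recovered 97.3% to 100% of genes changed by 1 on the log2 scale, and the test with minus without type I genes 56.7% of increases and 32% of decreases of that size. The changed genes in these simulations all lay above the levels of Gbp2 and Gbp9, and every gene was given the same dispersion. The recovered shares therefore do not apply to members with so few UMIs. Replicates are separate mice by the design text.

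The members and the gene lists were chosen with earlier results of these data known. Named genes were every member and, of each list, the 3 with the highest mean CPM and up to 5 past the threshold by size of fold; the results of 1 list gene are not reported here.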

Additional observations from a re-analysis of the deposited data

Results flagged for a closer look

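One gene passed the test of whether the effect of type I interferon genes differed between genotypes. Apoe, an apolipoprotein of activated microglia and macrophages, had an interaction of 2.205 on the log2 scale (SE 0.17, edgeR adjusted p = 0.0430). It was at 5836 CPM with and 539 CPM without type I genes in the deficient library, 1300 and 554 CPM in WT 1, and 1286 and 613 CPM in WT 2. Of the 472 Apoe UMIs in the 26 deficient cells with type I genes, 332 came from 1 cell, and without that cell the level was 1836 CPM. No member passed this test.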

How the results depend on the processing

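Gbp7 passed between genotypes under 12 of 13 alternatives with a test and had a log2 fold change of 0.63 to 0.72 in these; the exception was the cells with at least 2 type I UMIs (-0.16), a setting that also turned Gm4951 (-0.48), with few cells. Besides, the genotype calls of Gm4951 and Rtp4 were lost under 3 and 5 alternatives. Without WT 1 or WT 2 its log2 ratio, with no test, was 0.66 and 0.69. The 857 genes called between genotypes became 487 with DESeq2, 1393 without the interferon-led cluster, 381 at a low immediate early share and 55 in cells with type I genes. Irf1 passed without the interferon-led cluster (-0.32, adjusted p = 0.0172), and Gbp9 turned at a low immediate early share (-0.066) and in thinned cells (-0.15). The sets with 0 or at least 2 type I UMIs and without Scrublet calls were added after seeing the data.

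The 168 genes called with minus without type I genes became 100 with DESeq2, 45 with limma voom, 44 with sums of thinned UMIs, and 43 to 124 when 1 library was left out (43 without the deficient library, 87 without WT 2). There Gbp3 turned with sums of thinned UMIs (-0.38). Gbp7, near 0, turned without a count filter (-0.0045), at 1 UMI (-0.13), with Bst2, Ifitm3 and Ifi27l2a added (-0.14) and without WT 1 (-0.27; range without 1 library up to 0.25). Egr2 and Ier2 turned with those 3 genes added (-0.19 and -0.11) and with a strict cell filter (-0.049 and -0.16). The cause was not tested. The interaction called 1 gene with edgeR (314 at an unadjusted p under 0.05), 0 with limma voom (657) and 10 when cells needed 1 UMI, where Igtp turned to 0.33. The sums over members in microglia-like, border macrophage-like and neutrophil-like cells stayed within their intervals under a strict filter and resolution 0.5; monocyte-like clusters were not named there.

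No paired analysis was possible because the deficient group has 1 library, so the groups share fewer than 2 replicate numbers. Depth limits every value resting on under 10 UMIs, which includes most members in the cells with type I genes.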

Other observations

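Members seldom appeared together in a cell at this depth. After thinning to 1000 UMIs, 22.8% of deficient microglia-like cells, 21.1% of WT 1 cells and 20.1% of WT 2 cells held a UMI of any of the 7 genes, and 1.95%, 1.79% and 1.72% held UMIs of at least 2 of them. In neutrophil-like cells the share with any member was 6.67% in WT 1 and 8.13% in WT 2.

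In the immediate early cluster led by Fosb, Irgm1 was at 26.3 CPM on 6 UMIs in deficient cells, against 8.77 CPM in WT 1 and 9.96 CPM in WT 2, while over all microglia-like cells Irgm1 lay at 25.0 CPM in the deficient library and 21.9 and 22.3 CPM in WT 1 and WT 2. In the interferon-led cluster Irgm1 was at 55.2 CPM in 47 deficient cells, 30.0 CPM in 453 WT 1 cells and 31.1 CPM in 645 WT 2 cells, and Igtp at 82.7, 51.1 and 52.4 CPM in the same libraries. The intervals of the deficient cells of the interferon-led cluster, on 8 and 12 UMIs, overlapped those of WT. The deficient Irgm1 value in the Fosb-led cluster, on 6 UMIs, is not read as a difference between libraries.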
